A study of Mus musculus with 9 samples.

Results

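The genes described here are 6 markers of the 2-cell-like state of mouse embryonic stem cells: Zscan4c, Zscan4d, Zscan4f, Tcstv1, Tcstv3 and Zfp352. They were chosen by name, out of 35896 annotated genes to which transcripts of the deposited tables could be assigned. All 6 were found in the tables, and 3 of them, the Zscan4 genes, passed the filter on low counts.

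The libraries came from E14, an established mouse embryonic stem cell line grown on gelatin in medium with serum. RNA with poly-A tails was sequenced from 3 groups of 3 cultures, and the study's design text calls the replicates of the groups paired. Cells of the group "Control +LIF2i" stayed in self-renewal medium, which holds LIF, the MEK inhibitor PD0325901 at 1 µM and the glycogen synthase kinase-3β inhibitor CHIR99021 at 1 µM. Cells of the group "Control 72h -LIF2i" spent 72 h without LIF and without both inhibitors, which starts spontaneous differentiation. Cells of the group "CK666 72h -LIF2i" spent the same 72 h without them but with 80 µM CK666, a small molecule that inhibits the Arp2/3 complex, the nucleator of branched actin filaments. CK666 was dissolved in DMSO, and the labels do not say whether the control cultures received DMSO, so the compound and its solvent cannot be told apart. The groups are called self-renewing, withdrawn and CK666-treated cells below. The series title names the question behind them, the need for Arp2/3 activity in differentiation and its timing.

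In mouse embryonic stem cell cultures, a small and changing fraction of cells passes for a time through a state that resembles the embryo at the 2-cell stage, when the zygotic genome is switched on. The transcription factor Dux (annotated as Duxf3) activates this programme and binds the regulatory regions of Zscan4, Zfp352 and the long terminal repeats of the endogenous retrovirus MERVL. The Zscan4 genes encode proteins with a SCAN domain and zinc fingers that act in telomere maintenance and genome stability, Tcstv1 and Tcstv3 are named for their variable expression at the 2-cell stage, and Zfp352 encodes a zinc finger protein of the early embryo. Single cells were not resolved here: in these bulk libraries, fewer cells in the state and less RNA per cell in the state cannot be told apart.

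The libraries held 16894327 to 22550952 estimated counts. The lowest level read as detected was set at 3 counts, which is 0.133 to 0.178 CPM (counts scaled by the library total) and covers counting error only. The 3 replicate 1 libraries stood apart: counts above 0 were found for 15690 to 17605 genes in them and for 18166 to 18749 genes in the other 6 libraries, although their totals were the largest of each group. The withdrawal differences of the 3 Zscan4 genes and of Gm21761, and some counts of called genes, are therefore also given without replicate 1. As a check of the labelled cell type, the summed level of 6 pluripotency markers (Pou5f1, Sox2, Nanog, Esrrb, Zfp42 and Klf4) was 4174 to 4711 CPM in self-renewing cells, 1406 to 1573 CPM in withdrawn cells and 1576 to 1869 CPM in CK666-treated cells.

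The 3 Zscan4 genes lie in 1 cluster of 9 annotated Zscan4 genes and pseudogenes that spans 820 kb of chromosome 7 (GRCm38, positions 10794242 to 11614112). Zscan4c lies at chr7:11005745-11010547 on the plus strand, Zscan4d at chr7:11161374-11166159 on the minus strand and Zscan4f at chr7:11397915-11402318 on the plus strand, each with 4 exons. Their coding sequences are 1518 bases long and nearly the same. Zscan4c and Zscan4f differ at 6 bases (99.6% identity), and each differs from Zscan4d at 35 bases (97.69% identity). Over the 3 coding sequences 38 bases differ, and the longest run without a difference is 233 bases. The 90 bases shown here (coding bases 676 to 765, GENCODE M21) hold the most differences among the 3 genes of any stretch of this length, and show how few bases tell the genes apart. Capitals mark the 8 bases at which the genes differ.
Zscan4c: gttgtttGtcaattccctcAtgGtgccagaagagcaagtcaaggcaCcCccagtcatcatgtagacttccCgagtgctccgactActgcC
Zscan4d: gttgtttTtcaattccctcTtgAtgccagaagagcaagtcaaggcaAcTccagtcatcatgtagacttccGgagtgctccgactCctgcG
Zscan4f: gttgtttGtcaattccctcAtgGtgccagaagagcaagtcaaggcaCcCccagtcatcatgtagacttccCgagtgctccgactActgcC
In this stretch Zscan4d differs from the others, and Zscan4c and Zscan4f are identical, so a read from it cannot tell those apart.

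The same holds along the whole transcripts. Of the 31-base words in its transcripts, a length often used to match reads to transcripts, 8.46% of those of Zscan4c (190 of 2246) and 8.28% of those of Zscan4f (162 of 1957) occur in no other annotated gene. For Zscan4d the share is 35.0% (784 of 2242). Zscan4f shares 80.4% of its words with Zscan4c. The deposited values carry the mark of this: of the 27 values of the 3 genes in the 9 libraries, 23 were not whole (by more than 0.01), because a read that fits more than one transcript is shared out among them. Summed over the 9 Zscan4 genes, the counts were whole within 0.01 in all 9 libraries. The split of reads within the family is thus an estimate, while the family sum is a count of reads, and both are given below. Genes outside the cluster also share some words with the Zscan4 genes, of which Gm45551 had 0 to 13 counts a library and Gm17737 had 0 in all of them.

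**Figure D1:**
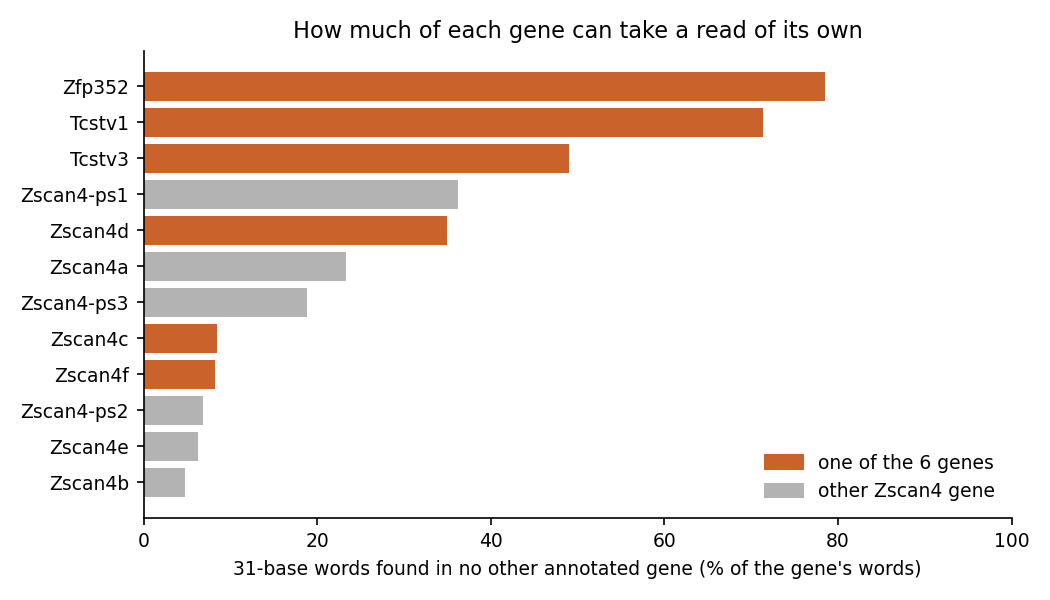
Share of the 31-base words of each gene's annotated transcripts that occur in no other annotated gene (x axis, percent; bars start at 0), for the 6 genes (orange) and the other 6 genes of the Zscan4 cluster (grey). Zscan4c and Zscan4f are at 8.46% and 8.28%, whereas Zfp352 and Tcstv1 are at 78.5% and 71.4%.

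The promoters of the 3 genes are close copies as well. The windows are shown because they contain the letters TGATTCAA, the start of a motif known for Dux in which TCA follows. They hold the 250 bases before the RefSeq start of each gene (GRCm38.p6), and capitals mark TGATTCAA and TATAAA.
Zscan4c (chr7:11005495-11005744, plus strand): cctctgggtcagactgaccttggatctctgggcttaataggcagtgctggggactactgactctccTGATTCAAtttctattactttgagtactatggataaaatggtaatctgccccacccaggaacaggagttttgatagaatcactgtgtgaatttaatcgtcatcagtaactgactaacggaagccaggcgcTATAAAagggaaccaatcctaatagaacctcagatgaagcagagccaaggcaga
Zscan4d (chr7:11166149-11166398, minus strand): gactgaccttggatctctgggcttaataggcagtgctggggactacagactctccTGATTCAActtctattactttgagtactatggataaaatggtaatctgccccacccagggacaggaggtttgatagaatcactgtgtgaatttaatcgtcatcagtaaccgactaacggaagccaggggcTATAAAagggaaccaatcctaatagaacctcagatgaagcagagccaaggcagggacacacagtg
Zscan4f (chr7:11397665-11397914, plus strand): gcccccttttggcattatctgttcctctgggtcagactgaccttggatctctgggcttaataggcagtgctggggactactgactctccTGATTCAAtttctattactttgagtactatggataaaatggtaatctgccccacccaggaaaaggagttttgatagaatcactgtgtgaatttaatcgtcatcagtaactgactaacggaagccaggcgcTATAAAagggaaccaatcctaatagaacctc
TGATTCAA begins at position -184 from the start of Zscan4c, -195 from that of Zscan4d and -161 from that of Zscan4f, and TATAAA at -54, -65 and -31. The distances differ because the annotated starts do. For the alignment, the windows were extended to 50 bases after the start. In these longer windows Zscan4c and Zscan4f are 99.28% identical over 277 bases, and Zscan4c and Zscan4d 97.23% over 289 bases. TGATTCAA, alone and followed by TCA, and TATAAA were searched on both strands in windows from 250 bases before to 50 after the start of 32851 annotated genes. TGATTCAA, which the longer form contains, was found in 0.581% of these promoters, and TATAAA in 13.6%. The longer form, found in 0.00913% of promoters, was in none of the windows of the 3 genes, and neither TGATTCAA nor TATAAA was found in that of Zfp352. Zscan4b, a neighbour in the cluster, had TATAAA and not TGATTCAA in its window. A match of letters is a description of the window and not a measured binding site.

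Zscan4 RNA was present at a low level in self-renewing cells, was higher in withdrawn cells and was lower again in CK666-treated cells. The counts of the 9 Zscan4 genes together were 98, 67 and 42 in self-renewing replicates 1, 2 and 3, 188, 361 and 245 in withdrawn cells, and 52, 145 and 82 in CK666-treated cells. Scaled to library size with TMM factors, these were 4.82, 3.50 and 2.55 CPM (mean 3.62 ± 1.14, SD, n = 3), then 9.07, 18.7 and 13.2 CPM (13.7 ± 4.85), then 2.46, 8.21 and 4.58 CPM (5.09 ± 2.91). All 3 withdrawn libraries lay above all 3 self-renewing and all 3 CK666-treated libraries, while the latter groups overlapped. Within a replicate number, the withdrawn library was 1.88, 5.35 and 5.18 times the self-renewing one. The CK666-treated library was 3.68, 2.28 and 2.89 times lower than its withdrawn partner. Against its self-renewing partner it was 1.95 times lower in replicate 1 and 2.34 and 1.8 times higher in replicates 2 and 3. The mean log2 ratio was 1.90 (SD 0.857) for withdrawal, -1.53 (SD 0.345) for CK666 against withdrawn cells and 0.37 (SD 1.17) for CK666 against self-renewing cells. These sums are a description of the libraries and were given no test. Zscan4c, Zscan4d and Zscan4f together held 38.0% to 50.4% of the family's counts.

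**Figure D2:**
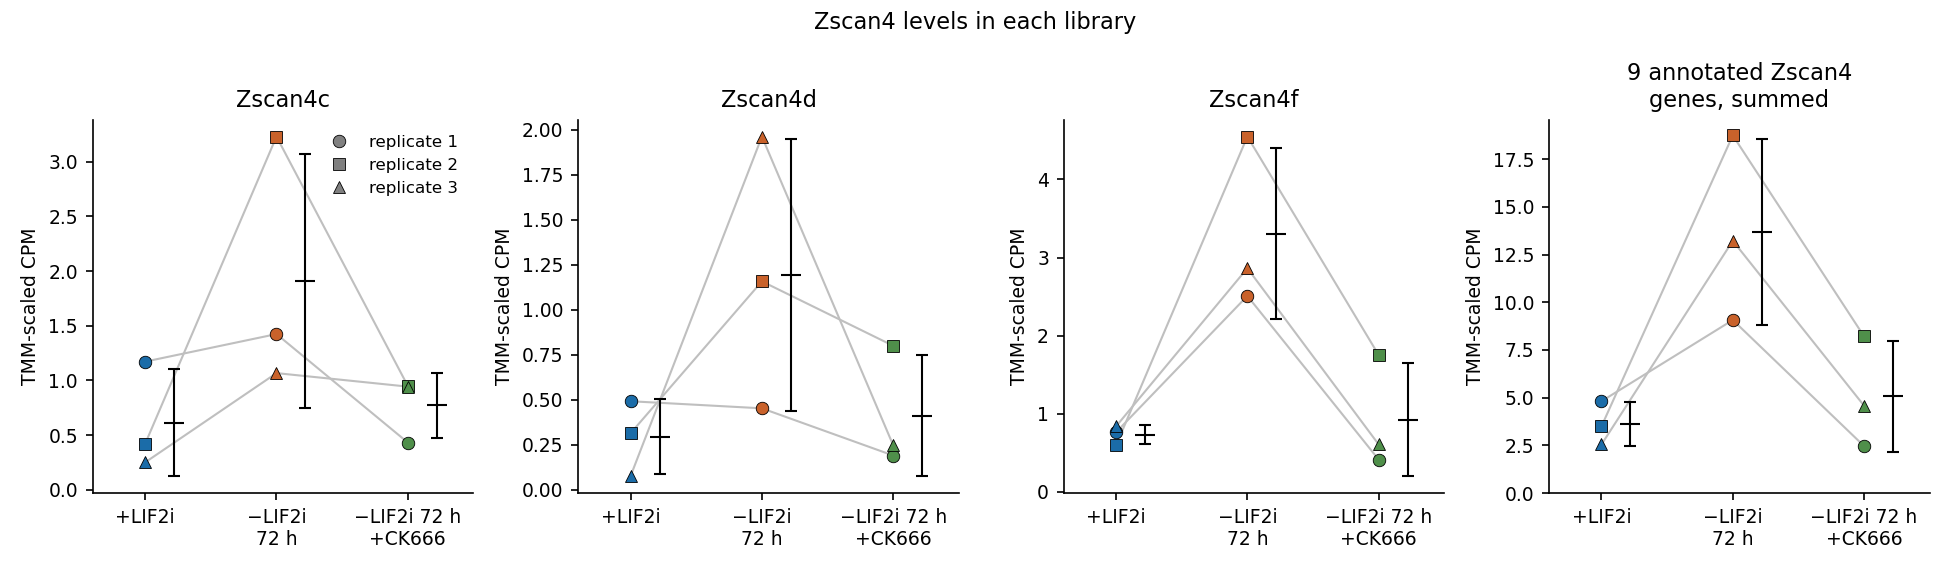
TMM-scaled CPM (y axis, linear, a scale of its own in each panel) of Zscan4c, Zscan4d, Zscan4f and the sum of the 9 annotated Zscan4 genes in the 3 groups. Each marker is a library, grey lines join libraries of the same replicate number, and black bars show the mean ± SD of 3 libraries. For the sum, the withdrawn libraries sit at 9.07 to 18.7 CPM, above the 8.21 CPM of the highest other library.

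Zscan4f was the one gene of the 6 that passed the test for withdrawal. It had 0.764, 0.596 and 0.839 CPM in self-renewing replicates 1 to 3, and 2.51, 4.55 and 2.86 CPM in withdrawn cells. CK666-treated cells had 0.414, 1.75 and 0.608 CPM. The withdrawn libraries did not overlap with those of either other group. Zscan4f rose on withdrawal by 2.05 on the log2 scale (SE 0.544, edgeR quasi-likelihood test with Benjamini-Hochberg adjustment, adjusted p = 0.014), from a mean of 0.733 ± 0.124 to 3.31 ± 1.09 CPM (n = 3 each), and was higher in 3 of 3 pairs. With CK666 it was lower in 3 of 3 pairs, with a log2 difference of -1.93 (SE 0.536) and a mean of 0.925 ± 0.724 CPM, which had an unadjusted p of 0.0054 in the edgeR test and missed the threshold after adjustment (adjusted p = 0.091). The call for withdrawal depended on single libraries: the adjusted p of the edgeR test was 0.057 without self-renewing replicate 2, 0.059 without withdrawn replicate 2 and 0.061 without withdrawn replicate 3. The CK666 difference had an adjusted p of 0.019 by the DESeq2 Wald test and of 0.024 by edgeR without self-renewing replicate 1.

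Zscan4c had 1.17, 0.421 and 0.251 CPM in self-renewing replicates 1 to 3, 1.42, 3.23 and 1.07 CPM in withdrawn cells and 0.432, 0.950 and 0.943 CPM in CK666-treated cells. Self-renewing replicate 1 lay above withdrawn replicate 3, so those groups overlapped, whereas each CK666-treated library lay below each withdrawn one. The log2 difference was 1.57 (SE 0.74) for withdrawal and -1.17 (SE 0.716) for CK666, in the same direction in 3 of 3 pairs each, and neither passed the edgeR test (adjusted p = 0.12 and 0.41). Zscan4d had 0.491, 0.314 and 0.0760 CPM in self-renewing cells, 0.452, 1.16 and 1.96 CPM in withdrawn cells and 0.190, 0.800 and 0.246 CPM in CK666-treated cells. Replicate 1 did not share the increase of the other replicates on withdrawal, and the groups overlapped in both comparisons. Its log2 difference was 1.88 (SE 0.958) for withdrawal, with 2 of 3 pairs higher, and -1.63 (SE 0.909) for CK666, with 3 of 3 pairs lower, and neither passed the edgeR test (adjusted p = 0.15 and 0.36). Leaving out libraries moved these values both ways. In a fit without the replicate 1 libraries, the edgeR log2 difference for withdrawal was 2.62 for Zscan4c (adjusted p = 0.0083), 3.10 for Zscan4d (adjusted p = 0.016) and 2.35 for Zscan4f (adjusted p = 0.0064). Leaving out self-renewing replicate 1 alone gave 2.72 for Zscan4c and 3.08 for Zscan4d (edgeR adjusted p = 0.0075 and 0.018). The withdrawal difference was smaller without other libraries: for Zscan4c it was 0.90 without replicate 2 (edgeR adjusted p = 0.57) and 1.05 without self-renewing replicate 2, and for Zscan4d it was 0.71 without replicate 3 (edgeR adjusted p = 0.7), 0.92 without withdrawn replicate 3 and 1.08 without self-renewing replicate 3. The CK666 difference ranged from -1.83 to -0.59 for Zscan4c, the latter without withdrawn replicate 2, and from -2.41 to -0.54 for Zscan4d, the latter without withdrawn replicate 3, over the fits that left out libraries.

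Of the 3 genes tested, 1 was called raised on withdrawal, in a comparison that called 40.7% of all 14648 tested genes and 21.1% as raised. The same gene, Zscan4f, was the one whose withdrawn libraries all lay above all self-renewing ones, as did those of 21.5% of all genes. None of the 3 was called for CK666, where edgeR called 2.05% of all genes and 0.894% as lowered. At an unadjusted p under 0.05, edgeR gave 1 of the 3, Zscan4f, a count with no share of all genes beside it. The DESeq2 Wald test called Zscan4f, in a comparison where it called 1140 of 14648 genes. Zscan4c and Zscan4f, 2 of the 3, had all CK666-treated libraries below all withdrawn ones, which held for 7.69% of all genes. The median log2 difference of the 3 was 1.88 for withdrawal and -1.63 for CK666, beside 0.00624 and 0.0167 over all genes. Both comparisons use the same withdrawn libraries, so the opposite signs are not separate observations. Because the 3 genes share reads, they are not separate observations of the state either.

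CK666-treated and self-renewing cells were compared as well, in a contrast that called 36.9% of all genes. The log2 difference was 0.40 (SE 0.768) for Zscan4c, 0.25 (SE 0.98) for Zscan4d and 0.12 (SE 0.571) for Zscan4f. None was called by edgeR (adjusted p = 0.71, 0.86 and 0.89) or by DESeq2, and 0 of the 3 had an unadjusted p under 0.05 in edgeR. The libraries overlapped for all 3 genes, and the sign changed when single libraries were left out. With errors of this size, the data do not show that Zscan4 was back at the level of self-renewing cells, nor that it differed.

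Levels of different genes can be compared per transcript length in the deposited TPM values, with the limit that reads were divided within the family. In withdrawn replicates 1, 2 and 3, Zscan4f had 2.54, 5.43 and 5.41 TPM, Zscan4c 1.12, 2.08 and 0.694 TPM, and Zscan4d 0.356, 0.746 and 1.28 TPM. Zscan4f was the highest of the 3 in each withdrawn library, while the order of Zscan4c and Zscan4d was reversed in replicate 3. Part of the Zscan4f values came from an annotated transcript of 521 bases, whose short length turns few counts into a high TPM. It had 7.35 and 14.2 counts in withdrawn replicates 2 and 3, 3 and 1.59 in self-renewing replicates 1 and 3, and 0 in the other libraries. In those libraries the size of the Zscan4f and summed TPM values thus rests partly on few counts. In CK666-treated cells Zscan4f had 0.396, 1.42 and 0.516 TPM and Zscan4c 0.321, 0.599 and 0.625 TPM, with Zscan4c the higher of the pair in replicate 3. The summed TPM of the 9 genes was 5.30, 2.34 and 2.26 in self-renewing cells, 8.36, 15.4 and 12.8 in withdrawn cells and 1.99, 5.88 and 3.51 in CK666-treated cells, with the same order of groups as in CPM.

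Tcstv1 was listed at 0 in all 9 libraries, which allows up to 3 counts or 0.133 to 0.178 CPM in each. It lies at chr13:119893388-119894785 on the minus strand and has 2 exons. Tcstv3, at chr13:120316878-120318178 on the plus strand, had 2 counts in self-renewing replicate 3, 1.18 in withdrawn replicate 2 and 0 in the other 7 libraries, all under the floor. No change of either gene was detectable at this depth. Their coding sequences are 93.57% identical. In Tcstv1 71.4% and in Tcstv3 49.0% of the 31-base words occur in no other gene, so most of a Tcstv1 transcript could have been told from its relatives. Other annotated genes share words with them, and 11 of these are in the tables. Summed, these relatives had 16.4, 32.8 and 10.2 counts in self-renewing cells, 25.1, 189.8 and 129.1 in withdrawn cells and 18.1, 41.5 and 37.7 in CK666-treated cells. Replicates 2 and 3 of the withdrawn cells thus stood far above the rest, and replicate 1 did not. Most of the sum came from Gm21761, described with the other genes of the state.

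Zfp352, at chr4:90218820-90225702 on the plus strand with 2 exons, was near the floor. It had 0, 1 and 0 counts in self-renewing replicates 1 to 3, 2, 1 and 6 counts in withdrawn cells and 0 in all 3 CK666-treated libraries. Of the 9 libraries, 1, withdrawn replicate 3 with 0.324 CPM, was above the floor. In a fit with no filter on low counts, Zfp352 had edgeR adjusted p-values of 0.48 for withdrawal and 0.46 for CK666, and Tcstv3 of 0.94 and 0.83. None of the 6 genes shares exonic bases with another annotated gene.

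**Figure D3:**
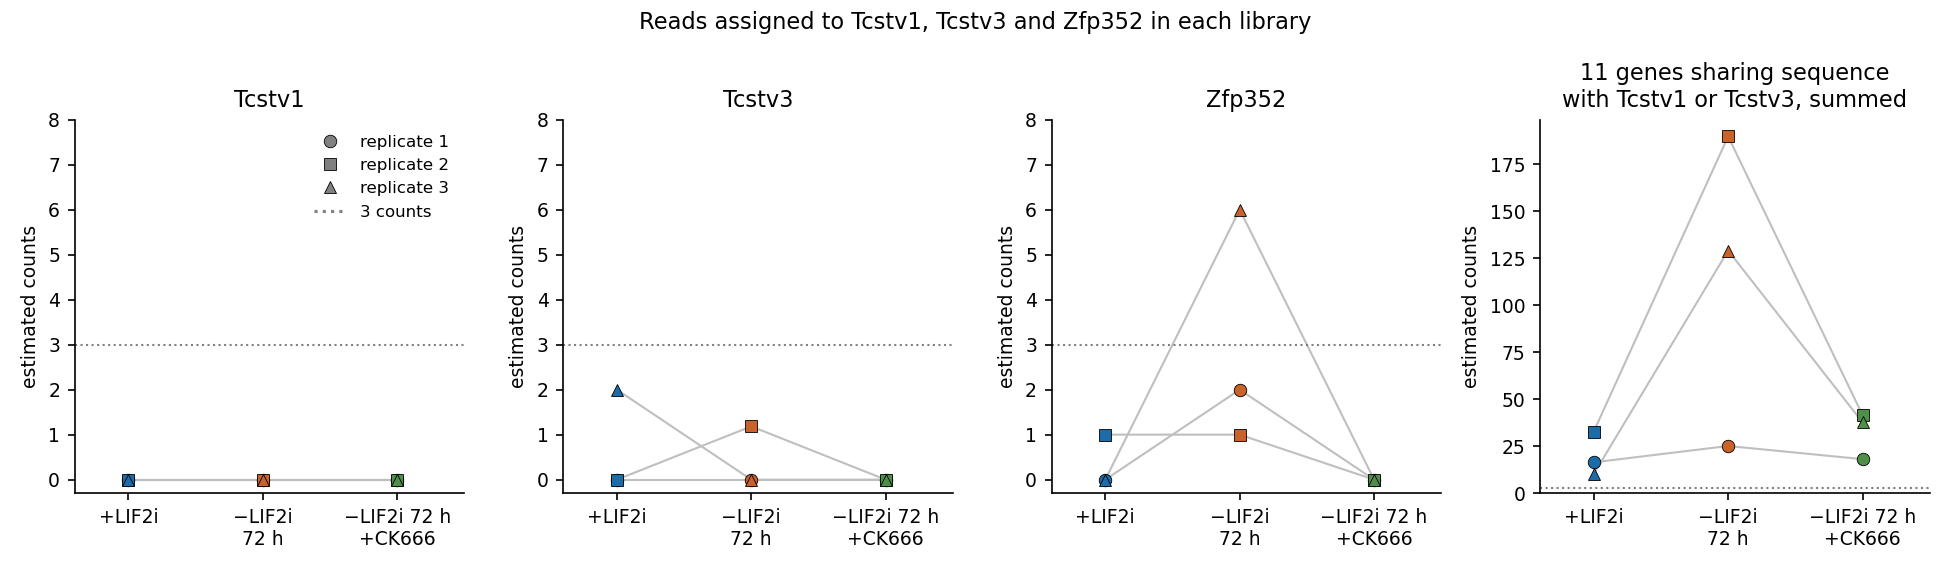
Estimated counts (y axis, linear) in the 3 groups of Tcstv1, Tcstv3 and Zfp352 and, on a scale of its own, the summed counts of 11 genes that share 31-base words with Tcstv1 or Tcstv3. Markers are libraries, grey lines join the same replicate number and the dotted line is the floor of 3 counts. Zfp352 in withdrawn replicate 3, with 6 counts, is the one library of the 3 genes above the line.

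Other genes known from the 2-cell-like state mostly had differences of the same sign as the Zscan4 genes. Of a list of 38 such genes, 37 were matched to the tables and 15 passed the filter on low counts. On withdrawal 5 were called raised and 1 lowered, a share near the 40.7% of all genes called (21.1% raised), so the count is no result about the list. Of these genes, 14 of 15 had a positive log2 difference, and the median was 1.94. With CK666 0 of 15 were called by edgeR, which called 2.05% of all genes, and 0 by DESeq2, which called 1140 of 14648 genes. In edgeR 4 had an unadjusted p under 0.05, a count with no share of all genes beside it. Of the 15, 13 were negative, with a median of -1.36. The 5 tested Zscan4 genes outside the 6 genes, which share reads with Zscan4c, Zscan4d and Zscan4f, had medians of 1.94 and -1.36, and the other 10 genes of the list had medians of 1.72 and -1.17. The count of 5 raised genes was 8 without the replicate 1 libraries and 0 without those of replicate 2 or of replicate 3. In these 3 fits withdrawal called 6588 of 14716, 3746 of 14828 and 3099 of 14968 genes. The count of 0 lowered with CK666 was 2 without the replicate 1 libraries and 3 without self-renewing replicate 1 alone. Those fits called 1811 of 14716 and 1657 of 14998 genes for CK666. Genes that passed the filter only through the withdrawn libraries had to be higher there, so the counts from the list describe the genes that passed and not the list.

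Usp17le, one of a family of ubiquitin-specific peptidases, had 0.197, 0.0523 and 0.0607 CPM in self-renewing replicates 1 to 3, 1.64, 1.51 and 1.03 CPM in withdrawn cells and 0.711, 1.13 and 0.559 CPM in CK666-treated cells. Both groups without LIF2i lay above the self-renewing one. Usp17le rose on withdrawal by 3.67 on the log2 scale (SE 0.722, edgeR adjusted p = 0.0033), a size that rests on few reads, since the self-renewing libraries had 4, 1 and 1 counts. This call was lost without the replicate 2 or the replicate 3 libraries (adjusted p 0.00028 to 0.059 over all alternatives by edgeR, DESeq2 and limma voom). Usp17le was called higher in CK666-treated than in self-renewing cells (log2 difference 2.88, edgeR adjusted p = 0.014). The latter call was lost without self-renewing replicate 2 or 3 or without CK666-treated replicate 2 (adjusted p 0.0066 to 0.19 over all alternatives by edgeR, DESeq2 and limma voom). Gm8300 had 0, 0.157 and 0.121 CPM in self-renewing cells, 0.772, 1.19 and 1.37 CPM in withdrawn cells and 0.0474, 0.283 and 0.112 CPM in CK666-treated cells. Its fitted difference on withdrawal was 3.69 (SE 0.878, edgeR adjusted p = 0.0088), and with CK666 it was -3.03 (SE 0.826, edgeR adjusted p = 0.088). Gm8300 passed the filter on low counts only through the withdrawn libraries (16, 23 and 25.4 counts, against 5 or fewer in each other library), so it had to be higher there, and the size of both differences rests on few reads.

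Gm21761, a relative of Tcstv1, had 0.806, 0.765 and 0.496 CPM in self-renewing cells, 0.680, 6.06 and 5.67 CPM in withdrawn cells and 0.516, 1.19 and 1.32 CPM in CK666-treated cells. Its call for withdrawal (log2 difference 2.18, SE 0.693, edgeR adjusted p = 0.032) came from replicates 2 and 3, since replicate 1 was not higher. Zscan4a, annotated as a pseudogene, was called at the edge of the threshold (log2 difference 2.47, edgeR adjusted p = 0.049). It too passed the filter only through the withdrawn libraries, with 16.4 to 36.7 counts there and 7.22 or fewer elsewhere, so it had to be higher in them. Leaving out some libraries ended these calls: Zscan4a was not called in any of the fits that left out a library, Gm21761 was not called without withdrawn replicate 2 or 3, self-renewing replicate 2 or 3 or CK666-treated replicate 2, and Gm8300 was not called without withdrawn replicate 3 or without the replicate 2 or the replicate 3 libraries. Without the replicate 1 libraries the withdrawal difference of Gm21761 was larger, at 3.21 (edgeR adjusted p = 0.00028).

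AU018091 went the other way. It had 113.5, 100 and 112.7 CPM in self-renewing cells, 2.64, 13.1 and 8.76 CPM in withdrawn cells and 4.83, 16.5 and 4.50 CPM in CK666-treated cells. AU018091 fell by 3.99 on the log2 scale on withdrawal (SE 0.506, edgeR adjusted p = 0.00059), held that call in all 22 alternative fits, and was not called between the groups without LIF2i (log2 difference 0.05, SE 0.482, edgeR adjusted p = 0.97). Duxf3, the annotated Dux gene, was at 0, 0.5 and 0.5 counts in self-renewing replicates 1 to 3, at 2, 2.5 and 3.5 counts in withdrawn cells and at 1, 1.73 and 0 counts in CK666-treated cells. Only withdrawn replicate 3 was above the floor of 3 counts, so the activator of the programme could not be compared at this depth.

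**Figure D4:**
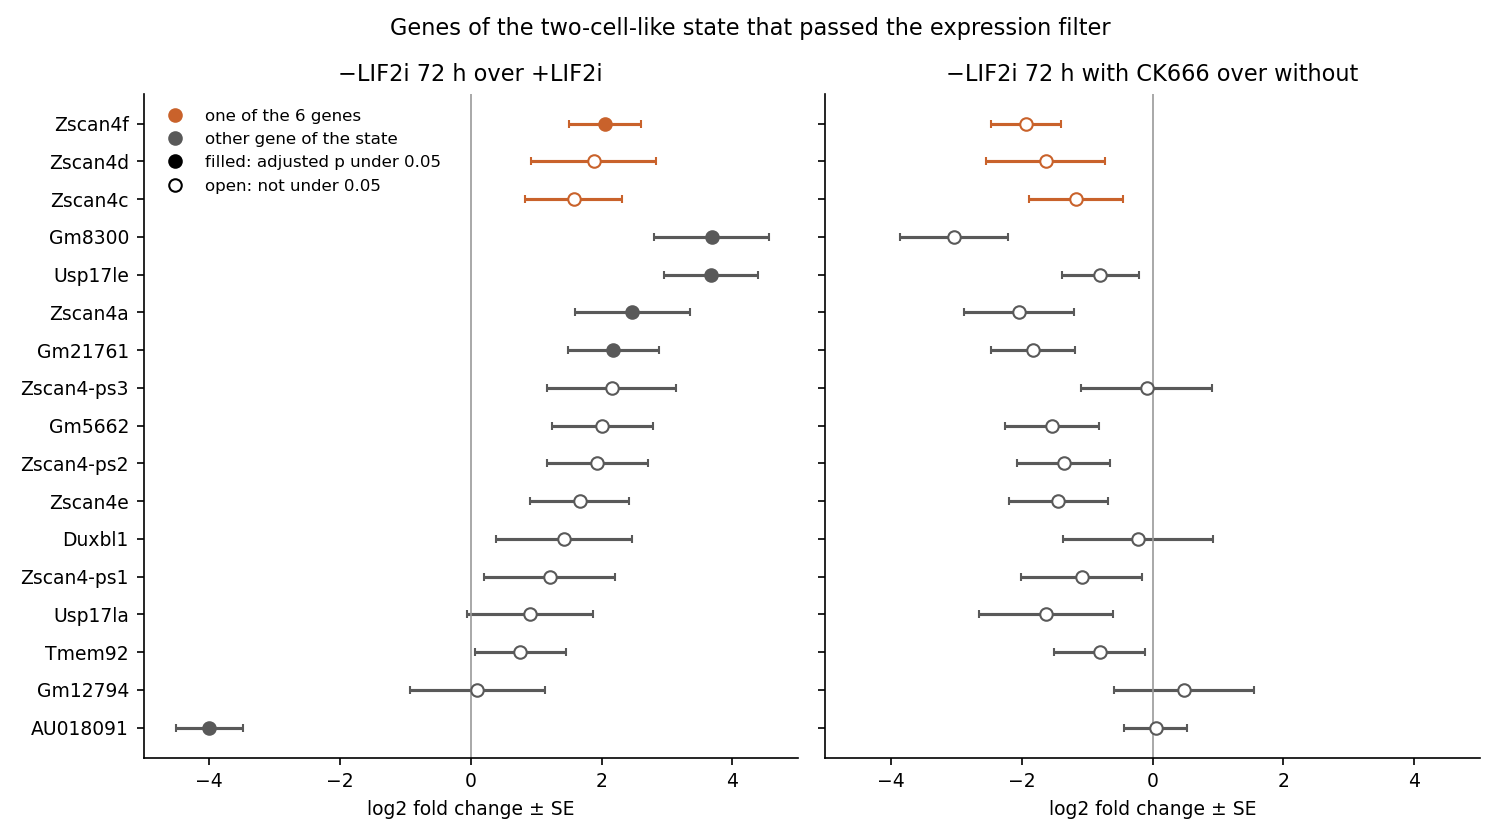
Log2 fold change ± SE (x axis) of Zscan4c, Zscan4d and Zscan4f (orange) and 14 of the 15 other listed genes (grey) that passed the filter on low counts, for withdrawal (left) and for CK666 against withdrawn cells (right). Filled points have an edgeR adjusted p under 0.05: Zscan4f and 5 of the drawn other genes on the left, none on the right, where 12 of the 14 other genes are below 0.

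**Figure D5:**
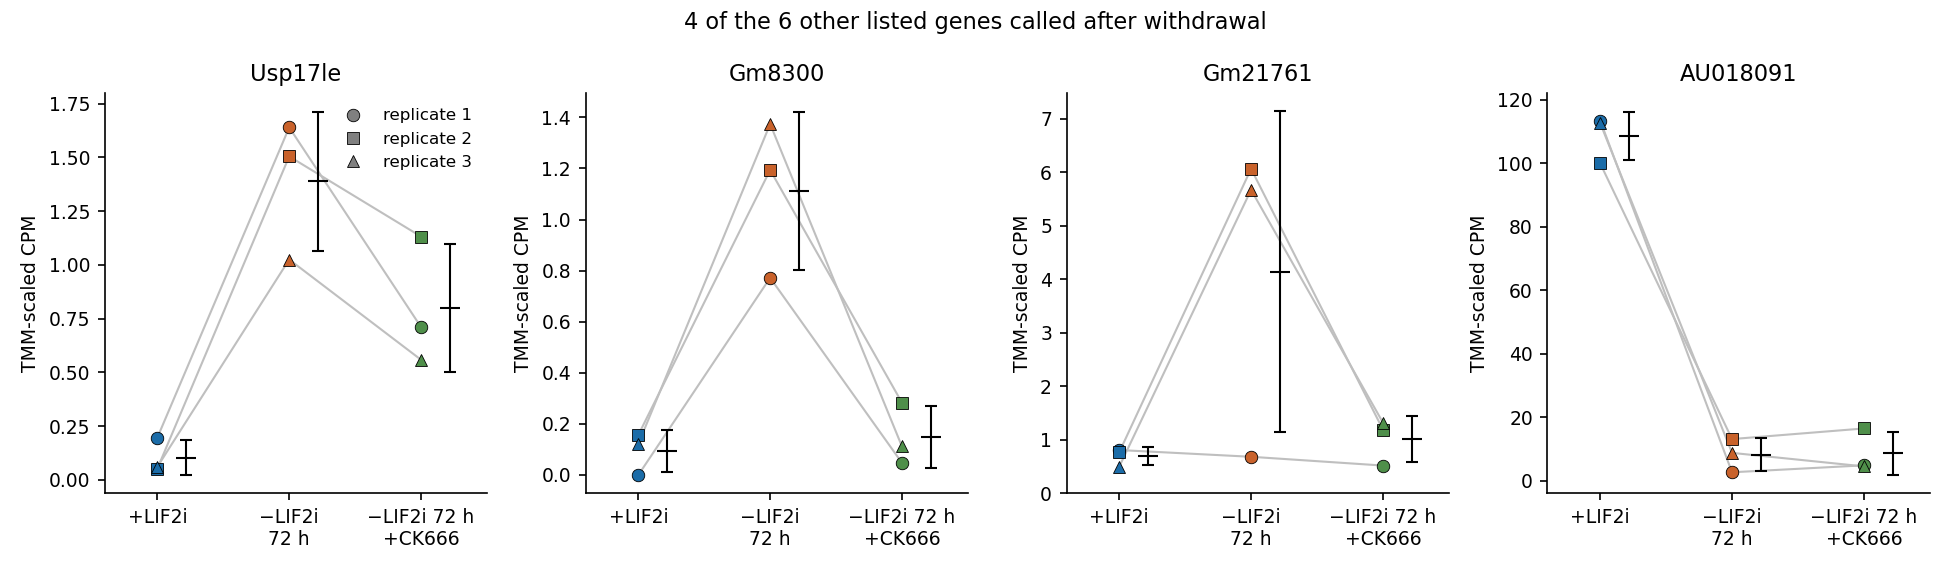
TMM-scaled CPM (y axis, linear, a scale of its own in each panel) of Usp17le, Gm8300, Gm21761 and AU018091, 4 of the 6 other listed genes called on withdrawal. Markers are libraries, grey lines join the same replicate number and black bars are mean ± SD of 3 libraries. Gm21761 in withdrawn replicate 1, at 0.680 CPM, lies far under the 5.67 and 6.06 CPM of the other withdrawn libraries.

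Of 6 listed activators upstream of the state, all tested, 0 were called raised and 2 lowered on withdrawal, with 2 having an unadjusted p under 0.05, a share not far from the 40.7% of all genes called. Dppa2 and Dppa4, chromatin proteins that act upstream of Dux, had log2 differences of 0.20 and 0.36 for withdrawal and -0.15 and 0.02 for CK666, none called by edgeR (adjusted p = 0.65, 0.13, 0.84 and 0.97). Tbx3, a T-box factor of naive pluripotency linked to Zscan4 expression, fell by 5.28 on the log2 scale on withdrawal (SE 0.549, edgeR adjusted p = 0.00028). It was raised by CK666 against withdrawn cells (log2 difference 3.31, SE 0.52, edgeR adjusted p = 0.031). This call held in 11 of 22 alternative fits (adjusted p 3.8e-06 to 0.35 over alternatives by edgeR, DESeq2 and limma voom). The call was lost without any 1 of withdrawn replicates 1, 2 and 3, of CK666-treated replicates 2 and 3, or of self-renewing replicate 3. With no replicate block, with no filter on low counts and with effective length offsets it was lost as well. The direction of Tbx3 was the opposite of that of the Zscan4 genes in both comparisons. Smad7, an inhibitory SMAD, was lowered on withdrawal (log2 difference -0.67, SE 0.156, edgeR adjusted p = 0.0079). Its call was lost without withdrawn replicate 1, with no replicate block and with effective length offsets (adjusted p 0.0016 to 0.29 over all alternatives by edgeR, DESeq2 and limma voom).

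Of 28 listed repressors of the state, 7 were called raised and 4 lowered on withdrawal, a share near the 40.7% of all genes called, with a median log2 difference of -0.03. For CK666 edgeR called 0 of the 28, beside 2.05% of all genes, and 6 had an unadjusted p under 0.05 in edgeR. DESeq2 called 2 of the 28, a share near that of its 1140 calls among 14648 genes. Uhrf1 and Dnmt1, which maintain DNA methylation, had log2 differences of -1.08 and -0.93 and were called lowered on withdrawal (edgeR adjusted p = 0.00012 and 0.0019), as were Rnf2 and Mga of the Polycomb complexes with -0.60 and -0.57 (edgeR adjusted p = 0.002 and 0.0075). Myc, a growth regulator, and Lin28a, an RNA-binding protein, rose by 4.15 and 1.82 (edgeR adjusted p = 3.7e-05 and 0.00033). Zfp462, Pcgf6, Smchd1 and Ehmt1 were called raised by 0.79, 0.43, 0.47 and 0.36. The calls among the repressors went both ways. Single libraries decided 5 of the 11: Ehmt1, Pcgf6 and Smchd1 were not called without self-renewing replicate 2 or withdrawn replicate 2, Ehmt1 and Pcgf6 also not without withdrawn replicate 1, Ehmt1 not without CK666-treated replicate 2, Zfp462 not without withdrawn replicate 2 and Mga not without self-renewing replicate 3.

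Markers of other cell types moved between the same groups. Of 6 fibroblast markers, 5 were tested and 4 called raised on withdrawal, where 21.1% of all genes were called raised. The summed level of the 6 was 6.01 to 9.39 CPM in self-renewing, 29.4 to 33.0 CPM in withdrawn and 17.1 to 26.7 CPM in CK666-treated cells, in the same order of groups as the Zscan4 sum. Most of this sum was Thy1, a cell surface glycoprotein, with 3.46 to 5.11, 20.6 to 21.5 and 9.90 to 20.2 CPM (withdrawal log2 difference 2.32, edgeR adjusted p = 0.00029, CK666 log2 difference -0.68, edgeR adjusted p = 0.21). Primitive endoderm markers summed to 7.62 to 12.2, 6.28 to 16.0 and 13.6 to 18.8 CPM. By edgeR 0 of the 5 tested were called for withdrawal or for CK666, where 40.7% and 2.05% of all genes were called. Trophoblast markers summed to 96.9 to 105.7, 18.9 to 26.6 and 18.6 to 26.9 CPM. In self-renewing cells the last sum was mostly Tfap2c, which was called lowered on withdrawal, whereas Krt7 was called raised (log2 difference 2.32, edgeR adjusted p = 0.034). The other 2 of the 4 tested, Gata3 and Eomes, had differences of 1.12 and 0.21 and were not called (edgeR adjusted p = 0.27 and 0.66). Mean levels in self-renewing, withdrawn and CK666-treated cells were 0.645, 1.54 and 3.20 CPM for Gata3, highest with CK666, and 9.57, 10.5 and 4.35 CPM for Eomes. Of the fibroblast markers, Col1a2, a collagen chain, was called raised on withdrawal from a mean of 0.399 to 3.25 CPM (edgeR adjusted p = 0.012), and Dcn, the proteoglycan decorin, from 0.163 to 1.39 CPM (edgeR adjusted p = 0.04) with the same mean of 1.39 CPM in CK666-treated cells, while Lum was at 0 in all libraries but withdrawn replicate 2 (0.0519 CPM). Cdx2, a trophoblast factor that did not pass the filter, had 0, 0 and 0.121 CPM in self-renewing, 0.917, 0.156 and 0.432 CPM in withdrawn and 0.0474, 0 and 0.168 CPM in CK666-treated cells, so it was higher in withdrawn cells within each replicate number, and Elf5 was at 0.278 CPM or lower in all 9 libraries. The part of these cell types in the Zscan4 values was not tested.

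The genes whose levels were most like the Zscan4 sum over the 9 libraries, by Pearson correlation of log2(CPM + 0.5), were Sp140 (r = 0.963), Dmac2 (0.952), Dnah7a (0.939), Nt5c (0.93) and the pseudogene Obox4-ps28 (0.918). With each replicate number's mean subtracted, the same correlations were 0.959, 0.964, 0.955, 0.925 and 0.921, and the genes then ranked 18, 15, 23, 68 and 78, so other genes were more like the sum. All points share 9 libraries and 3 groups, and many genes were compared, so these are descriptions. Sp140 was at 0 in all 3 self-renewing libraries and had 0.868, 1.89 and 1.10 CPM in withdrawn cells and 0, 0.566 and 0.112 CPM in CK666-treated cells. Obox4-ps28 had 0, 0.461 and 0.081 CPM in self-renewing, 0.917, 3.25 and 2.18 CPM in withdrawn and 0, 0.838 and 0.0484 CPM in CK666-treated cells. Of the listed genes of the state, Gm8300 ranked 19 (r = 0.891), Gm5662 22 (0.885), Tmem92 35 (0.868) and Gm21761 57 (0.846) among the genes tested, or 117, 32, 230 and 205 with the replicate means subtracted. Others ranked lower: Duxbl1 ranked 2915 (r = 0.409), Usp17la 3607 (0.344), Gm12794 3629 (0.342) and AU018091 11349 (-0.372), with Usp17le between at 201 (0.769). Zfp352 was above 0 in 4 libraries and Tcstv3 in 2, too sparse for a correlation to be read. The genes with the highest values were Mtx1, Etv2, Fosl1, Nefl and Fam219a for Zfp352 and Gm20075, Uros, Kiz, Nup88 and Dnase1 for Tcstv1 with Tcstv3.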

How the data were processed

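For 9 poly-A RNA libraries the authors deposited transcript tables with effective length, estimated counts and TPM, which hold 119414 transcripts each. The submitters' processing notes name FastQC, cutadapt 1.8.1, kallisto and sleuth, without roles, and the builds GRCh38 and mm10. Whether strand was used is not given in the sources used here. The deposited estimated counts are not normalized, and a read that fits several transcripts is shared out among them. TPM values were divided by the deposited effective length and scaled to 1000000 per library by the authors.

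Transcripts were assigned to genes with GENCODE M21 (GRCm38). Of them, 116640 matched and 116073 had the same version and length. The 2774 others, with 0.895% to 1.08% of a library's counts, were left out. Counts were summed per gene and rounded. The test was that of edgeR 4.0.16 (R 4.3.3; robust quasi-likelihood, TMM, filterByExpr, 14648 genes, 4 residual degrees of freedom), all 9 libraries in one fit with the replicate number as block. The pairing comes from the design text. Deviations from the group means correlated within each number (r = 0.363 to 0.719). A gene was called at an adjusted p-value (Benjamini-Hochberg) under 0.05. If the replicates are not separate cultures, the p-values measure technical spread only. SEs come from the test statistic, and CPM values are TMM-scaled. DESeq2 1.42.0 and limma 3.58.1 (voom) were alternatives. The fit was tested on simulated data.

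The 6 genes and the lists were chosen with earlier results of these data known. Listed genes were named when called, up to 8 per list and comparison by smallest adjusted p, except that genes meeting this rule which are not reported here were left out, and other genes by likeness to the 3 targets (5 each). Gm8300, Gm5662, Tmem92, Gm21761, Duxf3, Dppa2 and Dppa4 were also named where not called, after their values were seen. Pcgf6 and Ehmt1, called repressors outside the first 8 on withdrawal, and cell type markers that were not called were named as well. The authors' other annotation choices could move reads between Zscan4 genes, and so the family sum is given beside them.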

Additional observations from a re-analysis of the deposited data

How the results depend on the processing

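The tests were recomputed under 22 alternatives (fewer where a gene did not pass a filter), 10 of processing and 12 that left out libraries, the Zscan4 sum under 5 and the correlations under 2. Zscan4f kept its direction in all 22 for withdrawal and for CK666, and was called in 16 (adjusted p 0.0022 to 0.14) and 2 (0.019 to 0.54). Of the 6 genes, 1 was called for withdrawal. With effective length offsets 0 were, where Zscan4f had an adjusted p of 0.053. Leaving out libraries gave 0 to 3. For CK666 0 were called, 1 with the DESeq2 Wald test, and 0 to 1 with libraries left out. Without the replicate block the counts called were the same, 1, 0 and 0, with adjusted p-values for Zscan4f of 0.027 (withdrawal) and 0.4 (CK666). Over all genes the CK666 comparison then called 0, against 300 with the block, 1140 by DESeq2 and 535 by voom, and withdrawal called 3509 against 5967. Without replicate 1, 2 and 3, the CK666 comparison called 1811, 8 and 0 genes.

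CK666 against self-renewing cells changed sign: with effective length offsets Zscan4f was at -0.48, and with libraries left out Zscan4c ranged from -0.33 to 1.59, Zscan4d from -0.52 to 1.45, Zscan4f from -0.68 to 0.64 and the Zscan4 sum from -0.0612 to 1.04. The cause was not tested. Zscan4d gave no value with a filter of 1 CPM in 3 libraries or without replicate 2. The 9 Zscan4 genes together had 42 to 361 reads a library.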
